A study of Homo sapiens with 16 samples.

Results

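Transcription of the proteasome genes was followed in Kasumi-1, a myeloid leukaemia line, by PRO-seq, a nuclear run-on assay that labels nascent RNA and so maps engaged RNA polymerases. The genes were taken by symbol alone: every transcript counted whose name starts with PSM, then a letter of A to G, then a digit. The symbols gave 44 of the 10304 transcripts counted: 16 core genes (PSMA and PSMB), 20 regulatory genes (PSMC and PSMD) and 8 others. One of the 8, PSMC3IP, matched by its symbol but encodes a meiotic recombination factor and no proteasome part, so 43 genes of the proteasome remained. PSMC3IP is described by itself but stays in the counts and medians over the 44 members. PSMA8, PSMB9, PSMB11, PSMF1 and PSMG2 were not analysed here. All libraries came from cells with FKBP12F36V fused to SMARCA5, the motor subunit of ISWI chromatin remodellers, at its own locus on both alleles. The tagged cells had no dTAG-47 (0 h, n = 5 libraries) or 500 nM dTAG-47, a compound that directs the fusion protein to degradation, for 2 h (n = 3), 6 h (n = 4) or 24 h (n = 2). Whether the tagged line is 1 clone is not given in the sources used here, and the parental line was not analysed here.

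The proteasome is the protease that degrades proteins carrying ubiquitin chains. Its core particle is a barrel of stacked rings, with outer alpha rings (PSMA) that gate the entrance and inner beta rings (PSMB) that hold the cutting sites. The regulatory particle at the barrel's ends (PSMC and PSMD) binds the ubiquitin chain, removes it and unfolds the substrate. Its subunits are made in fixed proportion, and the transcription factor NRF1 (NFE2L1) is known to raise their genes together when proteasome activity drops. Myeloid leukaemia cells are known to depend on this protease. It also degrades proteins that a compound such as dTAG-47 marks through a ubiquitin ligase.

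The 14 libraries held 11182894 to 34209362 gene-body reads and 1667950 to 7171601 promoter-proximal reads. A number within the deposited column names sorts them into 3 sets, called runs here, though no source says what the number stands for. Run 1 held 2 libraries at 0 h and 1 at 2 h. Run 2 held 2 libraries at each of the 4 times. Run 3 held 1 library at 0 h and 2 at 6 h. Each time was therefore tested against 0 h in a model with a term for the run, and both 24 h libraries are in run 2. All 44 members passed the filter on low counts in both regions. Of 10 markers of myeloid progenitors and Kasumi-1 cells, 7 were among the transcripts counted, MPO, KIT, CD34 and CD33 included, whereas LYZ, ELANE and RUNX1T1 were not. KIT fell at 2 h (log2 change -0.56 ± 0.05, SE), and CD33 and CD34 rose at 24 h (0.85 ± 0.11 and 0.80 ± 0.14, SE). The 24 h libraries of CD34 (133 and 141 CPM) lay within its untreated range over all runs (67.1 to 215 CPM). Mean gene-body CPM at 0 and 24 h were 980 and 1272 for MPO, 167 and 202 for SPI1, 5.44 and 8.76 for CEBPA, and 3610 and 3122 for RUNX1. Of the markers of other cell types, CD4 (log2 change at 2 h of 0.25 ± 0.07, SE) and EPCAM (-0.73 ± 0.10, SE) were counted, and the part of any of these in the results was not tested. SMARCA5 itself had 96.8 ± 11.4 gene-body CPM at 24 h and 113 ± 20.6 CPM at 0 h (SD, n = 2 and 5), but nascent RNA does not measure the tagged protein and so does not check the labels.

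Promoters of the members were examined for the letters of 3 known elements, since genes under one regulator can share them. RefSeq promoters (GRCh38.p14) were matched for 38 of the 44 members. In the 250 bases before the start, TGACNNNGC, the core of the antioxidant response element bound by NRF1 and NRF2, was found on either strand in 9 of 38 members (23.7%), against 11.03% of all 27305 promoters and 12.6% of those of genes in the count tables. CCAAT was found in 17 of 38 (44.7%), against 33.0% and 36.4%. CCGGAAG, an ETS-factor sequence, was found in 9 of 38 (23.7%), against 8.82% and 17.9%. No motif contains another, and a match is not a binding site. The sequences printed are the 100 bases nearest the start that hold no annotated exon, for 4 genes that rose and 2 that fell in gene bodies, written 5′ to 3′ on the gene's strand with the matched letters in capitals. PSMB4, PSMD12 and PSMG4 hold no match in this stretch.
PSMB3, rose, chr17:38752636-38752735, plus strand: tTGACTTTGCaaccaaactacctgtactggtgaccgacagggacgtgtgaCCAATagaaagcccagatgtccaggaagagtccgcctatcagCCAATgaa
PSMD3, rose, chr17:39980697-39980796, plus strand: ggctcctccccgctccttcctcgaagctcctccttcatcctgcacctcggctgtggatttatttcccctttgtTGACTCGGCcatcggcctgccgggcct
PSMC3, rose, chr11:47426474-47426573, minus strand: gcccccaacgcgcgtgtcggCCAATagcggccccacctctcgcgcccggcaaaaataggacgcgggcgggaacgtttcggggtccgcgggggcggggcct
PSMB4, rose, chr1:151399434-151399533, plus strand: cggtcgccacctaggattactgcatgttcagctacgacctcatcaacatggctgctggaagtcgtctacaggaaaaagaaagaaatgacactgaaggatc
PSMD12, fell, chr17:67366628-67366727, minus strand: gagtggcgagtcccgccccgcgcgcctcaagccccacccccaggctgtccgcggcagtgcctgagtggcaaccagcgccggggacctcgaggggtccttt
PSMG4, fell, chr6:3258794-3258893, plus strand: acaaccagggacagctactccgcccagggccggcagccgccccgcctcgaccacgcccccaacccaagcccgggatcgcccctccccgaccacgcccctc
Over the whole 250 bases, the antioxidant response core was found in 2 of the 8 members called higher in gene bodies at any time (PSMB3 and PSMD3) and in 2 of the 8 called lower (PSMD12 and PSME4). CCAAT was found in 5 of the 8 called higher (PSMB3, PSMC3, PSMC3IP, PSMD3 and PSMD8) and in 1 of the 8 called lower (PSMD14). CCGGAAG was found in 1 called higher (PSMD8) and 3 called lower (PSMD12, PSME4 and PSMG4). No difference between these counts was tested.

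In untreated cells the members were transcribed at a median of 2.73 gene-body CPM per kb of listed length, against 1.94 over all 10304 transcripts. Core genes had a median of 3.75 CPM per kb and regulatory genes one of 2.73. The highest were PSMD7, a lid subunit of the regulatory particle, at 8.16 ± 0.81 CPM per kb, and PSMB10, an immunoproteasome protease, at 7.23 ± 1.28 (SD, n = 5). The lowest were PSMB8, another immunoproteasome protease, at 0.71 ± 0.20, PSMD10, a chaperone of the regulatory base, at 0.79 ± 0.23, and PSMB6, a constitutive protease, at 0.81 ± 0.30 CPM per kb. These 3 lie closer to one another than their spread over the 5 libraries. The counting window is not stated, so a part of each listed gene may not have been counted, which would understate short genes most.

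After dTAG-47 the proteasome genes did not move as 1 block in gene bodies. At 2 h, 7 members rose and 7 fell at an adjusted p under 0.05 (edgeR quasi-likelihood test, Benjamini-Hochberg over all transcripts), which is 14 of 44, against 38.6% of all transcripts called (19.7% rose and 18.9% fell). At 6 h, 1 rose (PSMC3IP, no proteasome gene) and 4 fell, against 26.8% of all transcripts called (13.5% rose and 13.4% fell). At 24 h, 2 rose (PSMB8 and PSMC3IP) and 4 fell, against 19.8% (10.8% rose and 9.08% fell). The share of members called was below the share of all transcripts at each time. Without the run term 2 members rose and 3 fell at 2 h (13.2% of all transcripts called), 4 rose and 6 fell at 6 h (29.2%), and 1 rose and 3 fell at 24 h (10.8%). In run 2 fitted alone 6 rose and 6 fell at 2 h (38.2% of all transcripts called), 7 rose and 4 fell at 6 h (42.5%), and 5 rose and 9 fell at 24 h (43.2%). The median log2 change of the 44 members was 0.03 at 2 h, -0.01 at 6 h and -0.04 at 24 h, against 0.01 over all transcripts at each of these times. Between treated times no member passed, at 6 h against 2 h (1.58% of all transcripts called; 1 member at an unadjusted p under 0.05) or at 24 h against 2 h (4.08%; 9 members). The members together took 0.293 ± 0.012% of all gene-body reads at 0 h, 0.292 ± 0.005% at 2 h, 0.278 ± 0.011% at 6 h and 0.267 ± 0.004% at 24 h (SD, n = 5, 3, 4 and 2). These means pool the runs. In run 2 the share was 0.282 and 0.286% at 0 h, 0.297 and 0.287% at 2 h, 0.288 and 0.285% at 6 h, and 0.270 and 0.265% at 24 h. Run 1 had 0.312 and 0.295% at 0 h and 0.291% at 2 h. Run 3 had 0.290% at 0 h and 0.264 and 0.274% at 6 h. Fewer polymerases per cell and fewer cells that transcribe a gene cannot be told apart in bulk libraries.

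**Figure D1:**
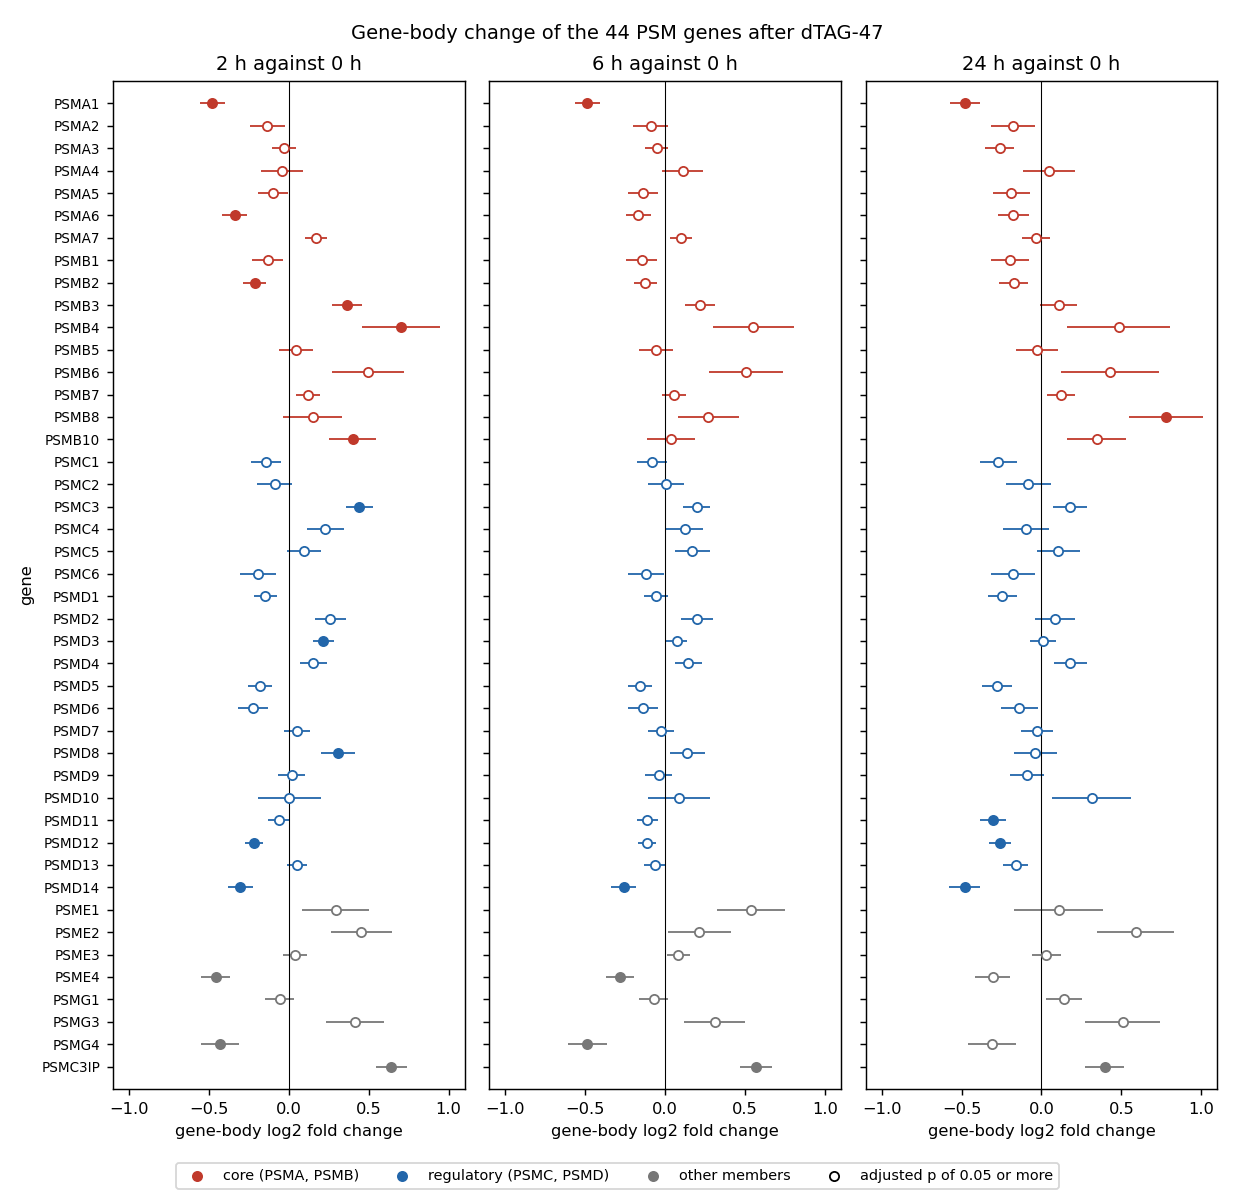
Gene-body log2 fold change of each of the 44 members at 2, 6 and 24 h against 0 h, with bars of 1 SE; filled points passed an adjusted p of 0.05 and colours mark core, regulatory and other members. Rises and falls of similar size stand within every class, and PSMA1 lies near -0.48 in all 3 panels.

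Among the alpha-ring genes, 2 of 7 fell at 2 h (PSMA1 and PSMA6), 1 fell at 6 h and 1 at 24 h (PSMA1 both times). None rose with the run term in the fit. In run 2 alone PSMA4 rose at 6 h (0.42, edgeR adjusted p = 0.00541) and PSMA3 fell at 24 h (-0.19, edgeR adjusted p = 0.0274). PSMA1 (hg19 chr11:14526422-14665180) is a structural subunit of that ring. At 0 h it had 352 and 329 CPM in run 1, 275 and 295 in run 2 and 261 in run 3. At 2 h it had 207 CPM in run 1 and 227 and 223 in run 2. At 6 h it had 215 and 205 CPM in run 2 and 182 and 203 in run 3, and at 24 h 223 and 204 CPM in run 2. Every treated library lay below every untreated one. The log2 change was -0.48 ± 0.08 at 2 h (SE; edgeR adjusted p = 0.000652), -0.49 ± 0.08 at 6 h (edgeR adjusted p = 0.000643) and -0.48 ± 0.09 at 24 h (edgeR adjusted p = 0.00408). The call at 24 h was lost without library B of 24 h (-0.42; edgeR adjusted p = 0.0628). The authors' deposited DESeq2 results, made from the same counts, give PSMA1 log2 changes of -0.49, -0.49 and -0.48 at these times. The listed PSMA1 transcript spans 138758 bases, whereas the gene's principal isoform in GENCODE v29 spans 15821, so most of the listed length lies outside the principal isoform and the promoter-proximal count may not be of its promoter. PSMA6 had 81.1 ± 4.81 CPM at 2 h and 102 ± 18.1 CPM at 0 h (SD, n = 3 and 5), a log2 change of -0.34 ± 0.08 (edgeR adjusted p = 0.00536). That fall was larger in run 1 (-0.57) than in run 2 (-0.19).

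Among the constitutive beta-ring genes, with the run term in the fit, 2 of 7 rose (PSMB3 and PSMB4) and 1 fell (PSMB2) at 2 h. At 6 or 24 h, 0 of 7 were called in that fit. PSMB3, a structural beta subunit, had 39.1 CPM in run 1 and 38.2 and 37.5 in run 2 at 2 h, against 26.4 and 28.8 CPM in run 1, 32.0 and 30.4 in run 2 and 39.2 in run 3 at 0 h. The 2 h libraries lay above the untreated libraries of their own runs and were matched by the untreated library of run 3. Its log2 change was 0.36 ± 0.09 (edgeR adjusted p = 0.00848). PSMB4, another structural beta subunit, had the largest 2 h change of the members, 0.70 ± 0.24 (edgeR adjusted p = 0.0357), from few reads: 9.44 CPM in run 1 and 6.24 and 6.69 in run 2 at 2 h, against 4.55 and 8.67 CPM in run 1, 3.85 and 2.30 in run 2 and 5.32 in run 3 at 0 h. These groups overlap, and the call was lost without library A of run 1 or either library of run 2 at 0 h, and without any 1 of the 3 libraries at 2 h (edgeR adjusted p = 0.0535 to 0.0934). In run 2 alone PSMB4 passed at 2 h (1.02, edgeR adjusted p = 0.00255), 6 h (0.90, edgeR adjusted p = 0.00644) and 24 h (0.73, edgeR adjusted p = 0.0262). There 38.2%, 42.5% and 43.2% of all transcripts were called. PSMB2 had 109.8 ± 5.33 CPM at 2 h and 125 ± 11.1 at 0 h (SD, n = 3 and 5), a log2 change of -0.21 ± 0.07 (edgeR adjusted p = 0.0325). It passed in 12 of 21 alternatives and was -0.11 in run 2 alone (edgeR adjusted p = 0.146). The 3 genes of the constitutive cutting sites had 2 h changes of 0.05 ± 0.11 (PSMB5), 0.50 ± 0.22 (PSMB6) and 0.12 ± 0.07 (PSMB7). None of them passed at any time in gene bodies with the run term in the fit. In run 2 alone PSMB6 passed at 6 h (1.04, edgeR adjusted p = 0.016), with 18 and 14 reads at 0 h.

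The immunoproteasome replaces constitutive cutting subunits with inducible ones, among them PSMB8 and PSMB10, which interferon is known to induce. PSMB8 (hg19 chr6:32808494-32812712) rose at 24 h, with 4.91 and 3.59 CPM at 24 h, against 2.06 and 2.30 CPM at 0 h in the same run (run 2). The other untreated libraries had 4.09 and 3.40 CPM in run 1 and 3.02 in run 3, so the 24 h values overlap those of run 1. The log2 change was 0.78 ± 0.23 (edgeR adjusted p = 0.0303) and rests on 60 and 47 reads at 24 h and 25 to 115 reads at 0 h. Without the run term it was 0.48 (edgeR adjusted p = 0.243), and without library A of 24 h 0.54 (edgeR adjusted p = 0.293). It was also lost without library B of 24 h or either untreated library of run 2, and over 21 alternatives the adjusted p lay between 0.00491 and 0.293. PSMB10 rose at 2 h by 0.40 ± 0.15 (edgeR adjusted p = 0.0453), with 22.8, 17.6 and 24.1 CPM at 2 h and 12.9 to 20.8 CPM at 0 h, and passed in 8 of 21 alternatives. PSME1 and PSME2, the interferon-inducible activator that caps the core, had 24 h changes of 0.11 ± 0.28 and 0.59 ± 0.24 and passed at no time, although in run 2 alone PSME2 passed at 2 h (0.80; edgeR adjusted p = 0.00989) and 24 h (0.85; edgeR adjusted p = 0.00611).

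Of the 6 ATPases that unfold substrates, PSMC3 (hg19 chr11:47440320-47448024) was the 1 called in gene bodies. It had 35.7 CPM in run 1 and 45.5 and 44.2 in run 2 at 2 h, against 25.3 and 28.6 CPM in run 1, 32.0 and 32.4 in run 2 and 35.9 in run 3 at 0 h. The 2 h libraries lay above the untreated ones of their own runs, and the 2 h library of run 1 just below the untreated library of run 3. Its log2 change was 0.44 ± 0.08 at 2 h (edgeR adjusted p = 0.00185), 0.20 ± 0.09 at 6 h (edgeR adjusted p = 0.109) and 0.18 ± 0.11 at 24 h (edgeR adjusted p = 0.254). The other 5 ATPases (PSMC1, PSMC2, PSMC4, PSMC5 and PSMC6) had 2 h changes of -0.19 to 0.23.

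Among the 14 non-ATPase genes, 2 rose and 2 fell at 2 h, 1 fell at 6 h and 3 fell at 24 h. PSMD14 (hg19 chr2:162164786-162268228), the deubiquitinase that removes the chain from the substrate, fell at all 3 times. At 0 h it had 320 and 258 CPM in run 1, 281 and 299 in run 2 and 251 in run 3. At 2 h it had 216 CPM in run 1 and 265 and 233 in run 2, at 6 h 254 and 246 in run 2 and 198 and 219 in run 3, and at 24 h 205 and 224 in run 2. The 24 h libraries lay below all untreated libraries, whereas the 2 h and 6 h libraries overlapped them. The log2 change was -0.30 ± 0.08 at 2 h (edgeR adjusted p = 0.00997), -0.26 ± 0.08 at 6 h (edgeR adjusted p = 0.0273) and -0.48 ± 0.10 at 24 h (edgeR adjusted p = 0.00488). Without library A of 24 h the last was -0.42 (edgeR adjusted p = 0.0797).

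The lid subunits PSMD11 and PSMD12, which help position the deubiquitinase, fell at 24 h. PSMD12 had 137 to 175 CPM (median 156) at 0 h, 134 to 141 CPM at 2 h, 127 to 147 CPM at 6 h, and 130 and 131 CPM at 24 h. Its log2 change was -0.22 ± 0.06 at 2 h (edgeR adjusted p = 0.00968), -0.12 ± 0.06 at 6 h (edgeR adjusted p = 0.147) and -0.26 ± 0.07 at 24 h (edgeR adjusted p = 0.0187). PSMD11 had 84.8 and 87.5 CPM at 24 h, below the 101 to 119 CPM of the untreated libraries, a log2 change of -0.30 ± 0.08 (edgeR adjusted p = 0.0215). PSMD8 and PSMD3, also of the lid, rose at 2 h by 0.31 ± 0.11 (edgeR adjusted p = 0.0356) and 0.22 ± 0.06 (edgeR adjusted p = 0.019), and their 2 h and 0 h libraries overlap. The call of PSMD8 passed in 10 of 21 alternatives and that of PSMD3 in 17 of 21. The ubiquitin receptor PSMD4 changed by 0.15 ± 0.08 and the scaffold subunits PSMD1 and PSMD2 by -0.15 ± 0.07 and 0.26 ± 0.10 at 2 h, none past the threshold. PSMD5, PSMD9 and PSMD10, which carry a regulatory symbol but are chaperones of the base, were called at no time with the run term in the fit. In run 2 alone PSMD10 rose at 6 h (0.57, edgeR adjusted p = 0.0255) and 24 h (0.64, edgeR adjusted p = 0.0128). PSMD5 fell there at 24 h (-0.21, edgeR adjusted p = 0.0211).

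PSME4 (hg19 chr2:54091204-54197977), a nuclear activator known for degrading acetylated histones, fell at 2 and 6 h. It had 202 CPM in run 1 and 206 and 196 in run 2 at 2 h, against 363 and 312 CPM in run 1, 243 and 243 in run 2 and 217 in run 3 at 0 h. Its 2 h libraries lay below all untreated ones, with the untreated libraries of run 1 far above those of the other runs. The log2 change was -0.46 ± 0.09 at 2 h (edgeR adjusted p = 0.00212), -0.28 ± 0.09 at 6 h (edgeR adjusted p = 0.0319) and -0.30 ± 0.11 at 24 h (edgeR adjusted p = 0.0663). PSMG4 (hg19 chr6:3259162-3268300), a chaperone of alpha-ring assembly, had 23.3 to 26.9 CPM at 0 h, 14.4 to 20.3 CPM at 2 h, 16.5 to 20.7 CPM at 6 h, and 18.9 and 20.0 CPM at 24 h, with no treated library in the untreated range. It fell by 0.43 on the log2 scale at 2 h (SE 0.12; edgeR adjusted p = 0.0144) and by 0.49 at 6 h (SE 0.12; edgeR adjusted p = 0.0107), and its 24 h change was -0.31 ± 0.15 (edgeR adjusted p = 0.161). The other chaperones PSMG1 and PSMG3 and the activators PSME1, PSME2 and PSME3 passed at no time with the run term in the fit.

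PSMC3IP (hg19 chr17:40724328-40729849), the gene that shares only the symbol, was the 1 match that rose at all 3 times. It had 9.72 to 13.4 CPM at 0 h, 16.9 to 19.4 at 2 h, 17.2 to 19.4 at 6 h and 15.9 to 16.8 at 24 h, with every treated library above every untreated one. The log2 change was 0.64 ± 0.10 (edgeR adjusted p = 0.000465), 0.57 ± 0.10 (edgeR adjusted p = 0.00139) and 0.40 ± 0.12 (edgeR adjusted p = 0.0368), and the last passed in 13 of 21 alternatives. It overlaps the listed MLX transcript by 893 bases and the strand counted is not stated, so reads of the pair may be shared. Without PSMC3IP, 6 proteasome genes rose at 2 h, 0 at 6 h and 1 at 24 h. Smaller overlaps with other listed transcripts touch PSMC5 (261 bases) and PSME1 (2 bases), and longer ones PSMD6, PSMA3 and PSMB7 (1686, 6644 and 5711 bases), none of which was called in gene bodies with the run term in the fit.

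**Figure D2:**
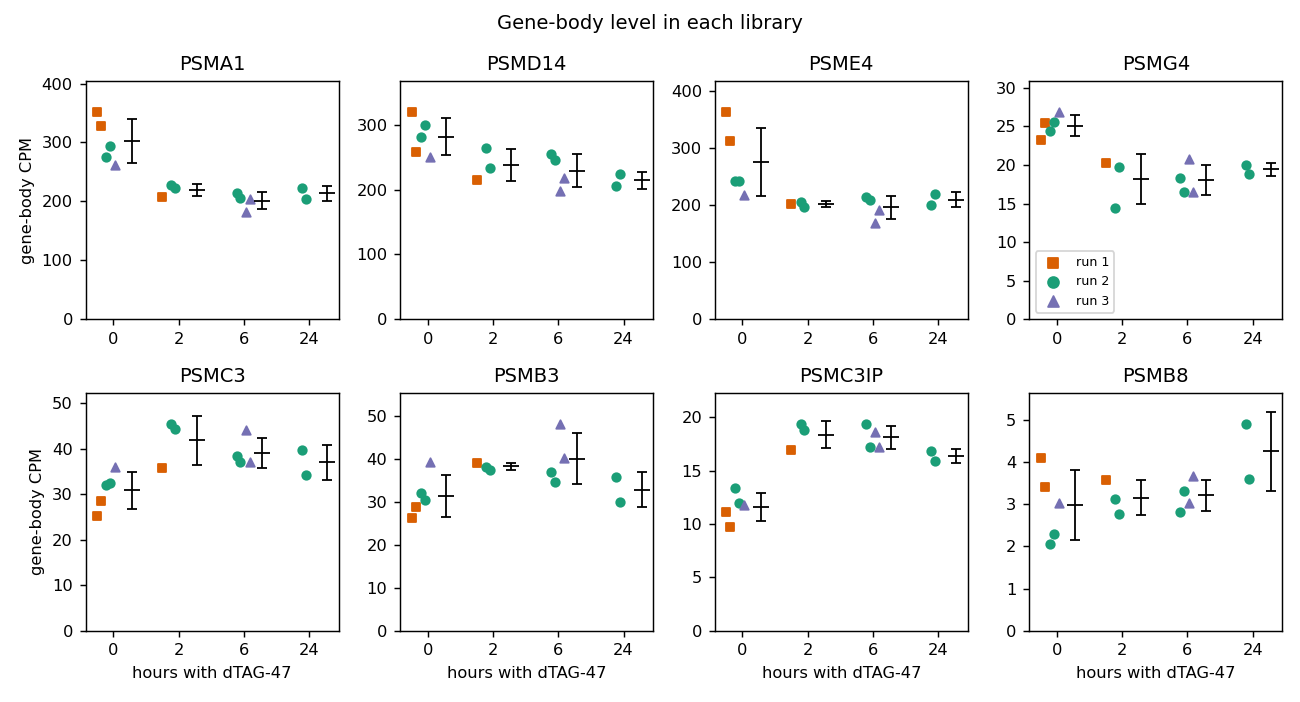
Gene-body CPM (y axis, from 0) of 8 members in each library at 0, 2, 6 and 24 h; colour and shape mark the run, and the bar to the right is the mean with 1 SD. Treated PSMA1 libraries (182 to 227 CPM) all lie below untreated ones (261 to 352 CPM), and treated PSMC3IP libraries all lie above untreated ones.

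Non-overlap of libraries needs no model. At 2 h all libraries of 2 members (PSMC3IP and PSMD2) lay above the untreated ones and those of 4 (PSMA1, PSMD5, PSME4 and PSMG4) below, 13.6% of members against 23.5% of all transcripts. At 6 h these were 3 (PSMC3, PSMC3IP and PSMD4) and 4 (PSMA1, PSMD11, PSME4 and PSMG4), 15.9% against 22.1%. At 24 h, with 2 libraries, they were 1 above (PSMC3IP) and 13 below, 31.8% against 34.6% of all transcripts, of which 1805 lay above and 1758 below.

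Core and regulatory genes, classes of unequal size, were set beside all transcripts, and no test of their difference was made. Over all transcripts, 19.7% rose and 18.9% fell at 2 h, 13.5% and 13.4% at 6 h, and 10.8% and 9.08% at 24 h. At 2 h, 3 core genes rose and 3 fell of 16 (median log2 change 0.01), and 3 regulatory genes rose and 2 fell of 20 (median 0.01). At 6 h, 0 core genes rose and 1 fell (median -0.01), and 0 regulatory genes rose and 1 fell (median -0.03). At 24 h, 1 core gene rose and 1 fell (median -0.03), and 0 regulatory genes rose and 3 fell (median -0.09). In gene bodies the median deviation of core genes minus that of regulatory genes was, on the log2 scale, -0.07 to 0.06 at 0 h, -0.03 to 0.02 at 2 h, -0.07 to 0.00 at 6 h and 0.04 in both libraries at 24 h. These treated values lay within the untreated range over all runs, but not within each run. In run 2 the untreated values (-0.067 and -0.050) lay below all treated ones (-0.031 to 0.043). In run 1 the 2 h value (0.021) lay below the untreated ones (0.042 and 0.060). In run 3 the 6 h values (-0.067 and -0.034) lay below the untreated one (0.038). Near promoters the difference was -0.098 to 0.26 at 0 h, -0.075 to 0.23 at 2 h, -0.12 to 0.017 at 6 h and -0.015 to -0.0053 at 24 h, so its lowest value at 6 h lay below the untreated range.

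**Figure D3:**
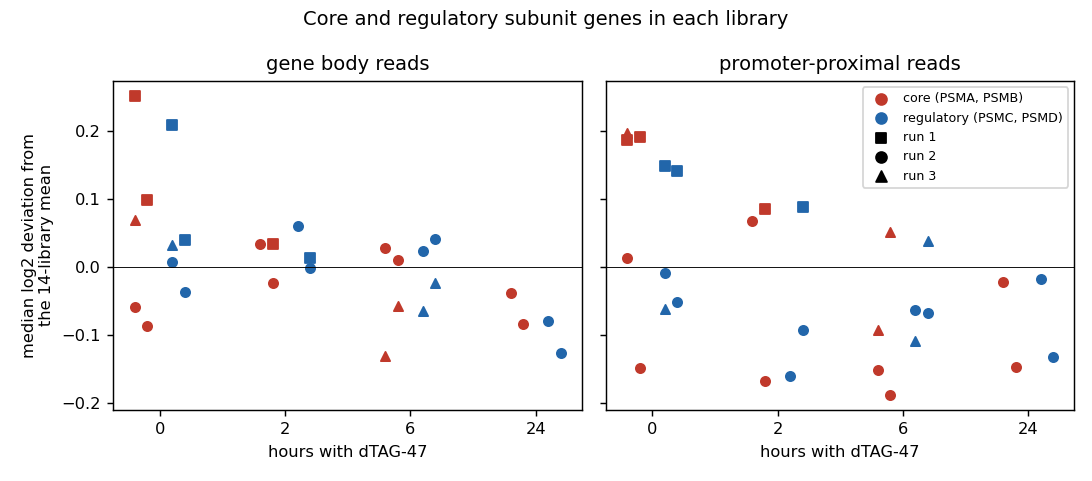
Median log2 deviation of core and regulatory genes from their own mean over the 14 libraries, for gene-body and promoter-proximal reads, by hours with dTAG-47; each point is 1 library and its shape the run. In gene bodies core and regulatory medians differ by at most 0.07 in any library, and the untreated libraries of run 1 lie above those of run 2.

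The medians differed between runs. Within run 1 (1 library at 2 h, 2 at 0 h) the core median at 2 h was -0.10 and the regulatory one -0.10, and 5 members rose and 12 fell, against 53.6% of all transcripts called. Within run 2 (2 libraries each) the core median was 0.12 and the regulatory one 0.08, and 4 members rose and 3 fell, against 19.5% of all transcripts. At 6 h the core and regulatory medians were 0.05 and 0.01 in run 2 (3 members rose and 2 fell, 24.5% of all transcripts called) but -0.14 and -0.11 in run 3 (1 rose and 1 fell, 14.5%). At 24 h, all in run 2, 3 members rose and 4 fell (24.5%). The medians over all transcripts lay between 0.01 and 0.02 in these same comparisons. The difference of the 2 h change between runs passed for 6 members (PSMA1, PSMA4, PSMA5, PSMA6, PSMB7 and PSME4), against 28.3% of all transcripts, and that of the 6 h change for 0 members, against 0.437%.

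The members were ordered by the listed length of the gene. Of the 19 members listed at 10 kb or less, 16 had a positive log2 change at 2 h, 15 at 6 h and 14 at 24 h. These were 84.2%, 78.9% and 73.7%, against 72.9%, 64.7% and 69.7% of all transcripts of that length. Of the 20 members between 10 and 60 kb, 7, 6 and 4 had a positive change (35%, 30% and 20%), against 52.6%, 50.7% and 48.7%. Of the 5 over 60 kb (PSMA1, PSMD1, PSMD14, PSME4 and PSMB7), 1 had at each time (20%), against 28.8%, 40.4% and 39.2%. PSMA1 stands in this class by its listed transcript, whereas its principal isoform spans 15821 bases. At 2 h the median change was 0.26 in the short members, -0.09 in the middle ones and -0.30 in the long ones. Over all transcripts of the same classes these medians were 0.23 (n = 2506), 0.02 (n = 5374) and -0.13 (n = 2424). At 6 h they were 0.17, -0.09 and -0.26 in members and 0.13, 0.00 and -0.05 over all transcripts. At 24 h they were 0.14, -0.18 and -0.30 in members and 0.19, -0.01 and -0.07 over all transcripts. The class limits were chosen after the values were seen.

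Across the 44 members, Spearman's correlation between length and gene-body change was -0.73 at 2 h, -0.73 at 6 h and -0.79 at 24 h. Over all 10304 transcripts it was -0.40, -0.21 and -0.28. Genes are not independent replicates and share the libraries, so the correlation is a description, and the 3 times share the untreated libraries. Within single runs the correlation over the members was -0.65 (run 1, 2 h), -0.73 (run 2, 2 h), -0.68 (run 2, 6 h), -0.55 (run 3, 6 h) and -0.75 (run 2, 24 h). Over all transcripts these were -0.37, -0.31, -0.12, -0.18 and -0.20. Without the 5 longest members the correlation over the members was -0.70, -0.73 and -0.80 at 2, 6 and 24 h. It was as large within the core genes (-0.78, -0.75 and -0.73) as within the regulatory genes (-0.64, -0.72 and -0.78). Core genes had a median listed length of 13409.5 bases and regulatory genes one of 16124.

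Length and level cannot be told apart over these genes, since a longer gene body collects more reads. Spearman's correlation between length and mean gene-body level was 0.92 over the members, and the correlation between level and change was -0.63, -0.69 and -0.74. Near promoters, where the correlation between length and level was 0.25, that between length and change over the members was -0.19, -0.29 and -0.16. Over all transcripts the latter was -0.09, -0.05 and -0.05. In single libraries, the correlation between length and a member's deviation from its own mean was -0.15 to 0.78 at 0 h, -0.60 to 0.05 at 2 h, -0.74 to -0.07 at 6 h, and -0.37 and -0.32 at 24 h. Over all transcripts the same values were -0.17 to 0.34, -0.39 to -0.05, -0.36 to 0.09, and -0.06 and -0.04. For the members, the untreated library of run 3 gave the -0.15, and both 6 h libraries of that run lay lower, at -0.74 and -0.61. PSMG4, at 9138 bases, and PSMB7, at 61977, stood off the order: PSMG4 was low among short members and PSMB7, with changes of 0.12, 0.06 and 0.12, high among long ones.

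**Figure D4:**
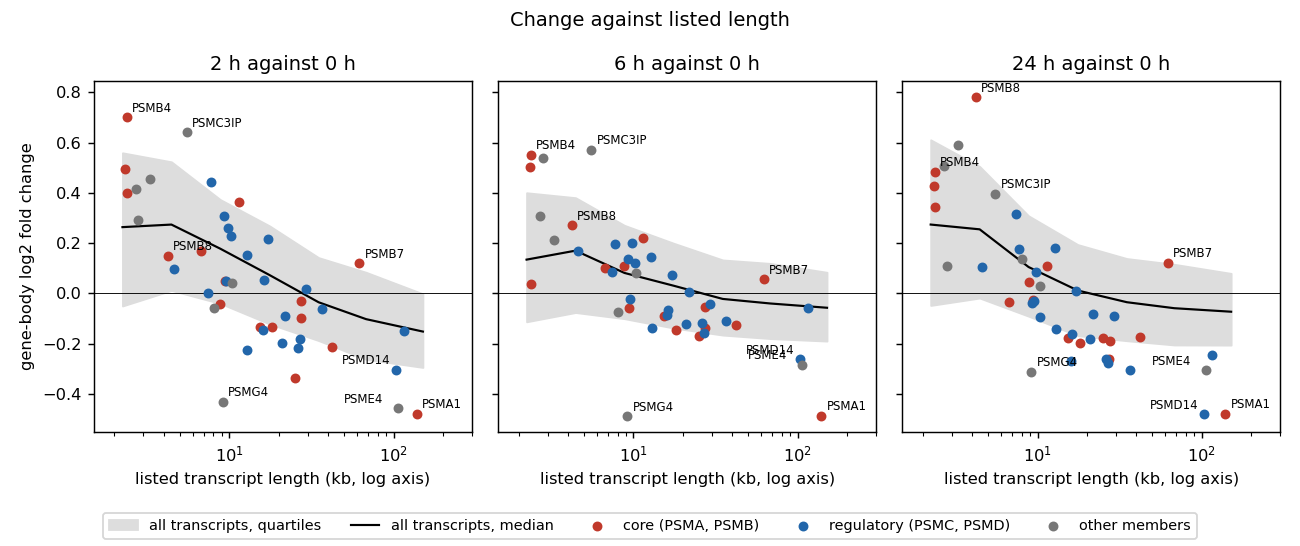
Gene-body log2 fold change (y axis) against listed transcript length in kb (log axis) at 2, 6 and 24 h against 0 h, for members by class, with the median and quartiles of all transcripts by length. Short members lie mostly above 0 and long ones below it, with PSMG4 and PSMB7 off this order.

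Near promoters, in the fit with the run term, 1 member was called at 1 time. At 2 h 0 of 44 members passed (edgeR; 12 at an unadjusted p under 0.05), against 4.61% of all transcripts. DESeq2 called 1 member there. At 6 h PSMB8 fell and no other member passed, against 2.24% of all transcripts. At 24 h 0 members passed (5 at an unadjusted p under 0.05), against 1.41%. In run 2 fitted alone more were called: 5 higher (PSMA5, PSMB5, PSMC3IP, PSMD8 and PSME1) and 4 lower (PSMA1, PSMD6, PSME3 and PSME4) at 2 h, against 17.2% of all transcripts, 2 lower (PSMA1 and PSME3) at 6 h, against 9.59%, and 2 higher (PSMC3IP and PSME1) and 3 lower (PSMC1, PSME3 and PSME4) at 24 h, against 14.6%. PSMB8 had 12.9 and 17.4 promoter-proximal CPM in run 2 and 12.6 and 14.8 in run 3 at 6 h, against 46.1 and 43.7 CPM in run 1, 22.1 and 17.3 in run 2 and 43.8 in run 3 at 0 h. The 6 h values of run 2 overlap the untreated range, and those of run 3 lie far below their single untreated library. The log2 change was -1.08 ± 0.28 (edgeR adjusted p = 0.0464), with -0.37 within run 2 and -1.68 within run 3. It passed in 7 of 22 alternatives, with adjusted p between 0.0199 and 0.506, the highest without the untreated library of run 3 (-0.62). The median promoter-proximal change was -0.12, -0.06 and -0.09 over the members and 0.00, 0.01 and 0.00 over all transcripts at 2, 6 and 24 h.

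Promoter-proximal change minus gene-body change, a measure of where polymerase sits along a gene, passed for 0 of 44 members at 2, 6 and 24 h (limma with Benjamini-Hochberg adjustment; 9, 3 and 3 members at an unadjusted p under 0.05), against 1.14%, 0.341% and 0.281% of all transcripts. In run 2 alone 5 fell at 2 h (PSMB4, PSMD3, PSMD6, PSMD10 and PSME3), 0 at 6 h and 1 at 24 h (PSMC1), against 11.5%, 3.6% and 9.7% of all transcripts. The value of PSMB8 was -1.28 ± 0.32 at 6 h (limma adjusted p = 0.0816) and -1.42 ± 0.39 at 24 h (limma adjusted p = 0.127).

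The genes that work with the proteasome were read from lists of fixed membership. Each is set beside the shares over all transcripts, of which 38.6%, 26.8% and 19.8% were called at 2, 6 and 24 h. Of 6 subunits and bound enzymes without a PSM symbol, 0 rose and 2 fell at 2 h, 3 fell at 6 h and 1 at 24 h. KIAA0368 (ECM29), which tethers the core to the regulatory particle, fell at each time, with log2 changes of -0.41 ± 0.08, -0.25 ± 0.08 and -0.35 ± 0.10 (edgeR adjusted p = 0.00255, 0.0366 and 0.0293). UCHL5, a deubiquitinase bound to the regulatory particle, changed by -0.35 ± 0.09 at 2 h (edgeR adjusted p = 0.0076) and -0.35 ± 0.09 at 6 h (edgeR adjusted p = 0.0096). Of 4 assembly or bound factors, TXNL1, a thioredoxin-like protein bound to the regulatory particle, fell at 2 h (-0.28 ± 0.08; edgeR adjusted p = 0.0148), and POMP, which matures the core, had changes of -0.05, 0.06 and 0.05.

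Of 8 genes through which NRF1 and NRF2 control the proteasome, 1 rose and 3 fell at 2 h, 1 rose and 2 fell at 6 h, and 1 rose and 1 fell at 24 h. The shares of all transcripts called were 38.6%, 26.8% and 19.8%. NFE2L1, which encodes NRF1, changed by 0.24 ± 0.10 at 2 h (edgeR adjusted p = 0.0585), 0.12 at 6 h and 0.16 at 24 h. NFE2L2, which encodes NRF2, fell at 2 h (-0.21 ± 0.05; edgeR adjusted p = 0.00797). NGLY1, the enzyme that strips sugars from NRF1, fell at each time, by 0.34, 0.26 and 0.34 on the log2 scale (edgeR adjusted p = 0.00115, 0.00686 and 0.00752). MAFG, a small MAF partner, rose at each time, with log2 changes of 0.71 ± 0.15, 0.57 ± 0.15 and 0.86 ± 0.18 (edgeR adjusted p = 0.00302, 0.0137 and 0.00516). MAFF, another partner, changed by -0.92 ± 0.24 at 2 h (edgeR adjusted p = 0.0099), and DDI2, the protease that activates NRF1, by -0.26 ± 0.07 at 6 h (edgeR adjusted p = 0.0139).

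Of the 9 genes of the CRL4-cereblon ligase, the ligase type that thalidomide-derived degraders recruit, and of its neddylation, 0 rose and 3 fell at 2 h, 2 fell at 6 h and none was called at 24 h. For this list and the next, the shares of all transcripts called were 38.6%, 26.8% and 19.8%. DDB1, its adaptor, changed by -0.29 ± 0.06 at 2 h (edgeR adjusted p = 0.0042) and -0.25 ± 0.06 at 6 h (edgeR adjusted p = 0.0126). CUL4A, its scaffold, changed by -0.31 ± 0.07 at 2 h (edgeR adjusted p = 0.00532) and -0.25 ± 0.07 at 6 h (edgeR adjusted p = 0.0225). CRBN, its substrate receptor, fell at 2 h (-0.28 ± 0.09; edgeR adjusted p = 0.0293). Of the 9 COP9 signalosome genes, which remove NEDD8 from cullins, 2 rose (GPS1, 0.75 ± 0.15, and COPS7A, 0.53 ± 0.15) and 1 fell (COPS2, -0.47 ± 0.12) at 2 h, COPS6 rose at 6 h (0.49 ± 0.16) and none was called at 24 h.

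Of 14 genes of shuttle factors and the p97 machine that deliver substrates, 4 rose and 1 fell at 2 h, 1 rose and 0 fell at 6 h, and 1 rose and 2 fell at 24 h. The shares of all transcripts called were again 38.6%, 26.8% and 19.8%. ZFAND2B, a p97 partner, rose at 2 h (0.93 ± 0.24; edgeR adjusted p = 0.00935) and 24 h (1.43 ± 0.30; edgeR adjusted p = 0.00544). Its level was low, with 1.22 to 2.01 CPM at 0 h, 2.55 to 3.71 CPM at 2 h, and 3.84 and 4.43 CPM at 24 h. RAD23B, a shuttle receptor, fell at 2 h (-0.34 ± 0.09; edgeR adjusted p = 0.00876) and 24 h (-0.37 ± 0.11; edgeR adjusted p = 0.028).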

How the data were processed

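Read counts per transcript were made by the authors for gene bodies and promoter-proximal regions and deposited with their DESeq2 results: a mean signal, log2 fold changes with standard errors, a Wald statistic (a score) and p-values, as the deposited tables' headers name them. Per the submitters' processing notes, the tools were DESeq2, DESeq, HOMER, SAMtools, Bowtie2 2.2.2 and Trimmomatic 0.32, with hg19 as genome build. No source used here gives the counting windows or the strand. The 84 deposited normalized columns were not used. The tables hold 14 libraries, whose columns carry a run number and a letter but no replicate number of the sample labels.

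Counts were fitted in R 4.3.3 with edgeR 4.0.16 (default filter, TMM, quasi-likelihood test, terms for time and run, Benjamini-Hochberg over all transcripts, threshold 0.05). CPM are on TMM-scaled library sizes. Promoter-proximal minus gene-body log2 CPM (prior count 2) was tested with limma 3.58.1. DESeq2 1.42.0 was an alternative. The tests were tested on simulated data. Standard errors are those of the fit. The authors' log2 fold changes and p-values come from their DESeq2 fit to these same counts, and only PSMA1's log2 fold changes are quoted. Their DESeq2 adjusted p for PSMA1 at 2 and 6 h (2.87e-07 and 2.75e-07) equals the lowest among the alternatives here. The authors' values are therefore no separate evidence. The replicates are biological per the labels, though what separates them is not stated.

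The members, lists and tests were chosen with earlier results of these data known. The main model has a run term because the runs are spread unevenly over the times. The rule for genes given in full took members called at 2 or more times in gene bodies, the 3 largest rises and falls per time, members called near promoters and members flagged below, and from each other list up to 4 genes of smallest adjusted p. NFE2L1, DDI2 and POMP were named outside it after their values were seen. Alternatives were no run term, run 2 alone, other scaling, no filter, only the groups compared, a threshold of 0.01, other prior counts and leaving out each library. The block of run and letter, run 2 alone for the promoter-proximal minus gene-body change and the length subsets were chosen after seeing the data. One list of related genes is not reported here.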

Additional observations from a re-analysis of the deposited data

Results flagged for a closer look

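In 10 of 176 groups of libraries looked at over the members, 1 library stood apart from its group; chance sets about 1 in 20 groups apart in this way. In gene bodies these were PSMA2 (78.4 CPM), PSMC6 (66.2 CPM) and PSMD11 (119 CPM) in untreated library A of run 1, PSMD13 in untreated library B of run 1 (75.5 CPM) and PSMC4 in 6 h library A of run 3 (31.0 CPM). Near promoters they were PSMA5 in 6 h library A of run 3 (283 CPM), PSMA6 in 6 h library B of run 3 (124 CPM), PSMC1 in untreated library B of run 1 (440 CPM), PSME2 in untreated library A of run 1 (134 CPM) and PSMD8 in the untreated library of run 3 (168 CPM). The groups pool the runs and the members share libraries, so the chance rate of 1 in 20 need not hold for them. For PSMD8 the 6 h libraries of run 3 were also high (215 and 163 CPM), against 49.4 to 77.6 CPM in the other untreated libraries.

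The gene-body change at 2 h differed between runs for 6 members (edgeR test of run 2 minus run 1, adjusted over all transcripts, of which 28.3% passed; run 1 has 1 library at 2 h). The difference was 0.55 for PSMA4, 0.50 for PSMA5, 0.47 for PSME4, 0.38 for PSMA6 and 0.38 for PSMA1 on the log2 scale, and -0.35 for PSMB7. PSMA1, PSMA6 and PSME4 had negative changes in both runs (-0.34, -0.19 and -0.27 in run 2, and -0.71, -0.57 and -0.74 in run 1). PSMA4 and PSMA5 had positive changes in run 2 (0.26 and 0.14) and negative ones in run 1 (-0.29 and -0.37), and PSMB7 had -0.03 in run 2 and 0.32 in run 1.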

How the results depend on the processing

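With run and column letter together as a replicate block, 4 members rose and 6 fell at 2 h, 1 rose and 4 fell at 6 h and 2 rose and 4 fell at 24 h in gene bodies; near promoters 0 fell at 6 h and 1 (PSMC1) at 24 h. No source says that a letter pairs libraries, and over all transcripts the differences of library A minus library B in run 2 correlated between times at -0.068 to 0.13 in gene bodies and -0.15 to 0.33 near promoters. In gene bodies the falls of PSMA1 at 2 and 6 h and of PSME4 at 2 h, and the rises of PSMC3 at 2 h and PSMC3IP at 2 and 6 h, passed in all 21 alternatives run at the 0.05 threshold. The causes of the moves below were not tested. The share of all transcripts called also moved with the setting: at 2 h it was 38.6% with the run term and 13.2% without it. For the replicate block, DESeq2, only the groups compared, the 0.01 threshold and leaving out libraries, no such share is given here. Counts from those fits are therefore not a result about the members. Without the run term, 2 members rose and 3 fell at 2 h, 4 rose at 6 h and 1 rose at 24 h; near promoters at 6 h the core and regulatory medians were -0.20 and -0.17. In run 2 alone, 7 rose at 6 h (42.5% of all transcripts called), 5 rose and 9 fell at 24 h (43.2%), and the 2 h core and regulatory medians were 0.12 and 0.083. Near promoters run 2 alone called 5 higher and 4 lower at 2 h, 2 lower at 6 h, and 2 higher and 3 lower at 24 h (17.2%, 9.59% and 14.6% of all transcripts), and for promoter-proximal minus gene-body change 5 lower at 2 h and 1 lower at 24 h (11.5% and 9.7%). With only the groups compared in the fit, 3 rose and 2 fell at 2 h, 2 fell at 24 h, and 0 fell near promoters at 6 h. DESeq2 called 7 lower at 24 h and 1 lower near promoters at 2 h. At a threshold of 0.01, 3 rose at 2 h, 1 fell at 6 h, 0 rose and 2 fell at 24 h, and 0 fell near promoters at 6 h. Within run 1 the 2 h core and regulatory medians were -0.10 and -0.10 in gene bodies and -0.19 and -0.30 near promoters. Within run 3 the 6 h medians were -0.14 and -0.11 in gene bodies, and the regulatory one was 0.056 near promoters. With gene-body scaling, promoter-proximal core and regulatory medians were -0.22 and -0.30 at 2 h, -0.23 and -0.30 at 6 h and -0.29 and -0.31 at 24 h, with the median of all transcripts at -0.16, -0.23 and -0.23 under that scaling, and 0 members fell at 6 h.

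Leaving out 1 library at a time gave 3 to 8 members that rose and 3 to 9 that fell at 2 h, 1 to 2 and 1 to 4 at 6 h, and 0 to 2 and 1 to 7 at 24 h. Core medians were -0.03 to 0.094, -0.02 to 0.03 and -0.09 to -0.01 at these times, and regulatory medians -0.048 to 0.05, -0.06 to 0.02 and -0.12 to -0.08. Near promoters 0 to 2 fell at 2 h, 0 to 1 at 6 h and 0 to 1 at 24 h, with core medians of -0.11 to -0.03, -0.07 to 0.01 and -0.12 to 0.06 and regulatory medians of -0.24 to -0.02, -0.12 to -0.06 and -0.10 to -0.03. For promoter-proximal minus gene-body change 0 to 1 fell at 2 h. Without the 2 h library of run 1 the 2 h calls of PSMA6, PSMB2, PSMB3, PSMB4, PSMB10, PSMD8, PSMD12 and PSMD14 were lost. Without either library at 24 h those of PSMB8, PSMC3IP, PSMD11 and PSMD12 at that time were lost. Without the untreated library of run 3 the 6 h calls of PSMD14, PSME4 and PSMG4 were lost. Depth limits short members such as PSMB4 and PSMB8, each with 25 gene-body reads in library B of run 2 at 0 h.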
